A study of Sus scrofa with 16 samples.

Results

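Expression of the genes that break down purines and pyrimidines was followed in the liver of pigs fed 3 dietary fats. The 8 genes were taken by name, as the identifiers whose annotated pig symbol is DPYD, DPYS, UPB1, XDH, UOX, PNP, ADA or GDA, out of 25880 genes listed in every library. The set was selected on measured values in so far as the names were chosen with earlier results of the diet comparisons known, above all the difference of DPYS between groups fed beef tallow and rapeseed oil, although no threshold on a value enters the choice. The differences between diets are therefore a description of these genes, and their adjusted p-values, computed over all genes tested, only place them among the other genes.

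Uracil and thymine are degraded in the liver in a chain of 3 enzymes. Dihydropyrimidine dehydrogenase (DPYD) reduces the base, dihydropyrimidinase (DPYS) opens the reduced ring, and β-ureidopropionase (UPB1) splits the product into ammonia, carbon dioxide and β-alanine or a related amino acid. Purines follow another route. Adenosine is deaminated by ADA, nucleosides are cleaved to bases by PNP, and guanine is deaminated to xanthine by GDA. Xanthine dehydrogenase (XDH) then oxidises hypoxanthine and xanthine to urate. Humans and other apes have lost a working urate oxidase (UOX), while pigs keep this peroxisomal enzyme of the hepatocyte, which carries urate on towards allantoin.

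The animals were crossbred fatteners, from Polish Landrace and Polish Large White sows and Duroc and Pietrain boars, fattened from about 60 to 118 kg in individual pens. Group R received rapeseed oil (3 gilts and 2 barrows), group B beef tallow (2 gilts and 3 barrows) and group C coconut oil (3 gilts and 3 barrows), in diets otherwise alike in energy and protein. There was no group without added fat, and 1 library of mRNA 3′ ends was made per pig. Age was not given in the sources used here.

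Reads assigned to genes numbered 705669 to 1767671 per library (median 1018321.5). Levels are given as counts normalised to a common library size (CPM), which in libraries of this type do not depend on the length of a transcript, and levels are compared here only within a gene or as ratios within a library. The 15 hepatocyte markers, ALB and TTR among them, together made up 80536 to 213904 CPM per pig. Beef tallow pig 3 stood apart from the other 15 pigs on the first principal component (19.3% of the variance), with a score of 62.7 against -20.3 to 18.6, and had the lowest sum of hepatocyte markers. Coconut oil pig 3 had the fewest reads, the highest share of reads with several alignments (38.1%) and the highest sum of hepatocyte markers. Values without these pigs are given beside the results they moved most. In whole liver, fewer cells of a type and less RNA per cell cannot be told apart.

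Of the 8 genes, DPYD, DPYS, UPB1, XDH and UOX were well covered, with at least 57 reads in every pig, and all 5 passed the filter on low counts in each comparison. PNP, ADA and GDA did not pass it in any. In group B against group R, 1 of the 5 genes tested, DPYS, was lower at an adjusted p of 0.05 by edgeR's quasi-likelihood test, where 1.11% of all 6318 genes tested were called in either direction and 0.459% were called lower. At an unadjusted p below 0.05, 3 of the 5 were lower (6.66% of all genes), and DESeq2 called 2 lower (1.33% of 5808 genes). In group C against group R, 0 of the 5 were called by edgeR (0.138% of all 6528 genes), and 3 were lower at an unadjusted p below 0.05 (6.53%). DESeq2 called 1 lower there (1.26% of 3565 genes). In group C against group B, 0 of the 5 were called by edgeR (0.0587% of all 6812 genes), and 2 were higher at an unadjusted p below 0.05 (5.24%). DESeq2 called 1 higher there (0.974% of 2156 genes). The adjusted p-values of DESeq2 were computed over those genes only, fewer than for edgeR in each comparison of diets. As the genes were picked with these contrasts in view, nothing is read from their counts against those shares. The fold changes below are on the log2 scale, each with its standard error (SE) from the edgeR fit, and the second group named is the reference.

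DPYS (ENSSSCG00000006040, chromosome 4 from 32791152 to 32879489 on Sscrofa11.1), the ring-opening enzyme, had the clearest difference of the 8 genes. In group R it was at 271, 222, 277, 280.2 and 219 CPM in pigs 1 to 5. In group B the 5 pigs were at 134, 106, 90.6, 146 and 75.2 CPM. Every pig of group B thus lay below every pig of group R, as was the case for 1.99% of all genes tested. The mean fell from 254 ± 30.6 to 110.2 ± 29.3 CPM (SD, n = 5 each), to 43.5% of the level in group R. The log2 fold change was -1.20 (SE 0.20, edgeR adjusted p = 0.0100), with a 95% interval from -1.62 to -0.79, and DPYS ranked 8th by p among the 6318 genes. With each pig left out in turn it stayed called 10 of 10 times, with log2 fold changes from -1.32 to -1.09. Without beef tallow pig 3 it was at -1.14 (edgeR adjusted p = 0.00971).

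In group C, DPYS ranged from 105 to 389 CPM with a median of 135 CPM. The highest value belonged to coconut oil pig 3, above all other 15 pigs, while the remaining pigs of group C, at 105 to 160 CPM, lay below every pig of group R. With all 6 pigs the mean was 172 ± 108 CPM, and the log2 fold change against group R was -0.58 (SE 0.27, edgeR adjusted p = 0.368, 95% interval -1.15 to -0.02). Without coconut oil pig 3 it was -0.97 (SE 0.15, edgeR adjusted p = 0.00844), so this single library decided the call. That pig also had the smallest library and the highest sum of hepatocyte markers, and their part in its DPYS level was not tested. Against group B the log2 fold change of group C was 0.63 (SE 0.31, edgeR adjusted p = 0.451), and 0.23 without coconut oil pig 3 (edgeR adjusted p = 0.721). The diets were thus ordered R, C and B in the mean level of DPYS, with groups C and B not separated beyond their spread.

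UPB1 (ENSSSCG00000010060, chromosome 14 from 49533208 to 49561518), which completes pyrimidine breakdown, was also lowest in group B. In group R it stood at 463, 431, 631, 518 and 391 CPM. In group B it stood at 339, 289, 142, 212 and 309.7 CPM, so that the highest pig of group B did not reach the lowest of group R. Such a gap downwards was found for 1.99% of all genes tested between these groups. The mean of group B was 53.1% of that of group R (258 ± 80.3 against 487 ± 92.9 CPM, SD, n = 5 each). With a log2 fold change of -0.91 (SE 0.23, edgeR adjusted p = 0.0627, 95% interval -1.39 to -0.44) the gene did not pass in this fit. It passed with all 16 pigs in 1 fit (edgeR adjusted p = 0.0237), without the filter on low counts (0.00703), by DESeq2 (DESeq2 adjusted p = 0.00775) and without beef tallow pig 3, where the log2 fold change was -0.76 (edgeR adjusted p = 0.0379). Over all fits tried, its adjusted p ranged from 0.00703 to 0.180.

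Group C held 341 to 482 CPM of UPB1, with a median of 416 CPM, and its 6 pigs all lay above the 5 pigs of group B. Such a gap upwards was found for 0.573% of all genes tested between these groups. It was narrow here, since the highest pig of group B was at 339 and the lowest of group C at 341 CPM. The mean of 415 ± 53.9 CPM in group C was 161% of that in group B, a log2 fold change of 0.69 (SE 0.20, edgeR adjusted p = 0.257, 95% interval 0.26 to 1.12). By DESeq2 it passed (DESeq2 adjusted p = 0.0426), and over all fits tried its adjusted p reached 0.579. Without beef tallow pig 3 it was 0.53 (edgeR adjusted p = 0.262). Against group R the difference was smaller, at -0.23 (SE 0.15, edgeR adjusted p = 0.547, 95% interval -0.55 to 0.08), and the pigs of the 2 groups overlapped.

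DPYD (ENSSSCG00000006878, chromosome 4 from 119931471 to 120712461), the reductase that opens the route and the enzyme that also clears the drug fluorouracil, showed small differences. Its level was 79.4, 107, 93.1, 112 and 80.6 CPM in group R and 91.7, 85.9, 73.5, 94.6 and 73.0 CPM in group B. In group C it ranged from 59.9 to 91.0 CPM with a median of 66.9 CPM. The groups overlapped in all 3 comparisons, although 5 of the 6 pigs of group C lay below the lowest pig of group R. The log2 fold change was -0.17 in group B (SE 0.17, edgeR adjusted p = 0.689, 95% interval -0.54 to 0.20) and -0.42 in group C (SE 0.16, edgeR adjusted p = 0.272, 95% interval -0.75 to -0.09), each against group R. A fall to the extent seen for DPYS in group B lay outside both intervals. Group C against group B was at -0.24 (SE 0.16, edgeR adjusted p = 0.593). DPYD was the least covered of the 5 genes, with 468 to 500 reads per diet, and counting error alone gave a coefficient of variation of 10.26% to 10.95%, against 12.02% to 16.06% measured between pigs of a diet.

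**Figure D1:**
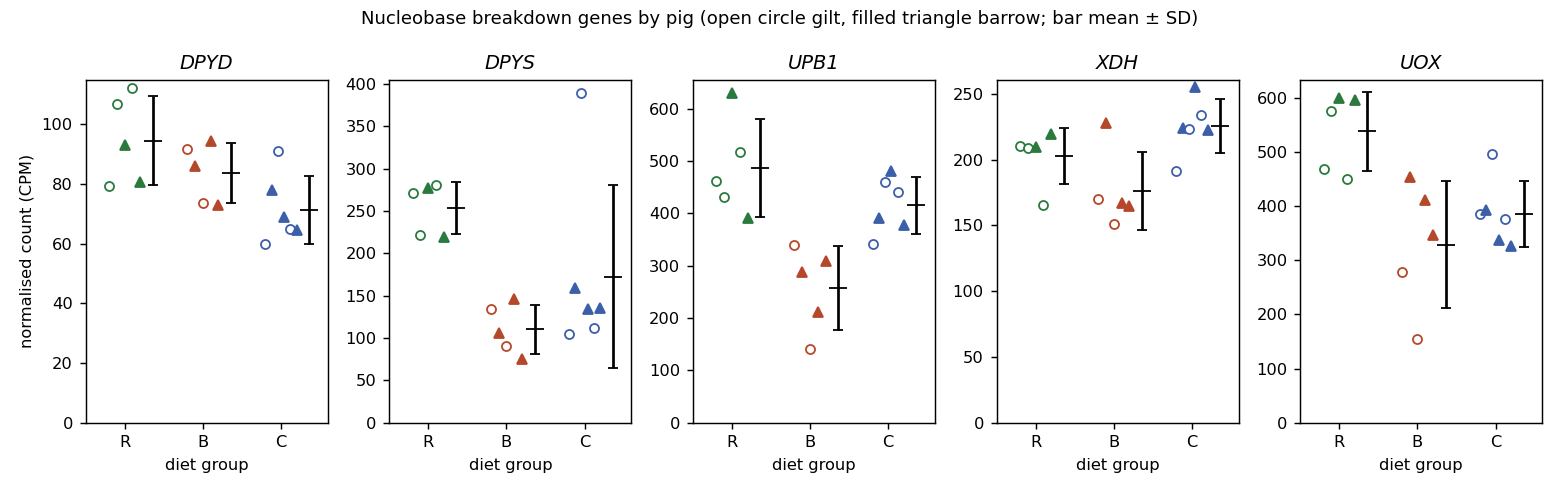
Normalised counts (CPM) of the 5 well covered genes in each pig of groups R (rapeseed oil), B (beef tallow) and C (coconut oil), with the mean ± SD to the right of each group. Every pig of group B lies below every pig of group R for DPYS and UPB1, and 1 pig of group C stands at 389 CPM of DPYS, above all others.

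XDH (ENSSSCG00000008522, chromosome 3 from 107987060 to 108052043), which forms urate, varied least of the 5 genes over all 16 pigs. Group R was at 210.4, 209, 209, 166 and 219 CPM and group B at 170.4, 228, 151, 167 and 165 CPM. Group C ranged from 192 to 255 CPM with a median of 224 CPM. The 3 groups overlapped, with means of 203 ± 21.1, 176 ± 29.9 and 225 ± 20.6 CPM, although 5 of the 6 pigs of group C lay above the highest pig of group R. Over all 16 pigs the coefficient of variation was 15.1%, against 18.3% for DPYD, 49.5% for DPYS, 30.6% for UPB1 and 28.7% for UOX. Against group R the log2 fold change was -0.20 in group B (SE 0.17, edgeR adjusted p = 0.598, 95% interval -0.56 to 0.15) and 0.15 in group C (SE 0.13, edgeR adjusted p = 0.718, 95% interval -0.14 to 0.43). Both intervals leave out a change of 1 log2 unit in either direction. The comparison of group C with group B gave 0.36 (SE 0.15, edgeR adjusted p = 0.395, 95% interval 0.04 to 0.68), with an unadjusted p of 0.0315.

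UOX (ENSSSCG00000022206, chromosome 6 from 129343632 to 129374833), which oxidises urate, was highest in group R. Its 5 pigs were at 469, 576, 599.8, 449 and 595 CPM. Group B was at 279, 453, 154, 411 and 346 CPM, and group C ranged from 325 to 497 CPM with a median of 381 CPM. In group B, 4 of 5 pigs, and in group C, 5 of 6 pigs, lay below the lowest pig of group R. The exceptions were beef tallow pig 2 and coconut oil pig 3. The share of all genes with such a partial gap was not counted, here or for the other genes. Group R had a mean of 538 ± 72.6 CPM, group B of 329 ± 118 CPM (61.1% of group R) and group C of 386 ± 60.6 CPM (71.7%).

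By edgeR these differences of UOX did not pass over all genes. Group B against group R was at -0.71 (SE 0.24, edgeR adjusted p = 0.153, 95% interval -1.22 to -0.21), and at -0.53 without beef tallow pig 3 (edgeR adjusted p = 0.125), in which UOX was lowest of all 16 pigs. Group C against group R was at -0.49 (SE 0.15, edgeR adjusted p = 0.178, 95% interval -0.79 to -0.18), and DESeq2 called it (DESeq2 adjusted p = 0.0233, with values up to 0.406 in the other fits tried). Between group C and group B the log2 fold change was 0.24 (SE 0.22, edgeR adjusted p = 0.708, 95% interval -0.24 to 0.71). Without beef tallow pig 3 it was 0.052 (edgeR adjusted p = 0.937), and with pigs 3 of both groups left out, an alternative chosen after the data were seen, it was -0.030. Levels of UOX in groups B and C were therefore not told apart. The comparisons with group R share its 5 pigs, so the lower UOX in both is not 2 independent results.

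**Figure D2:**
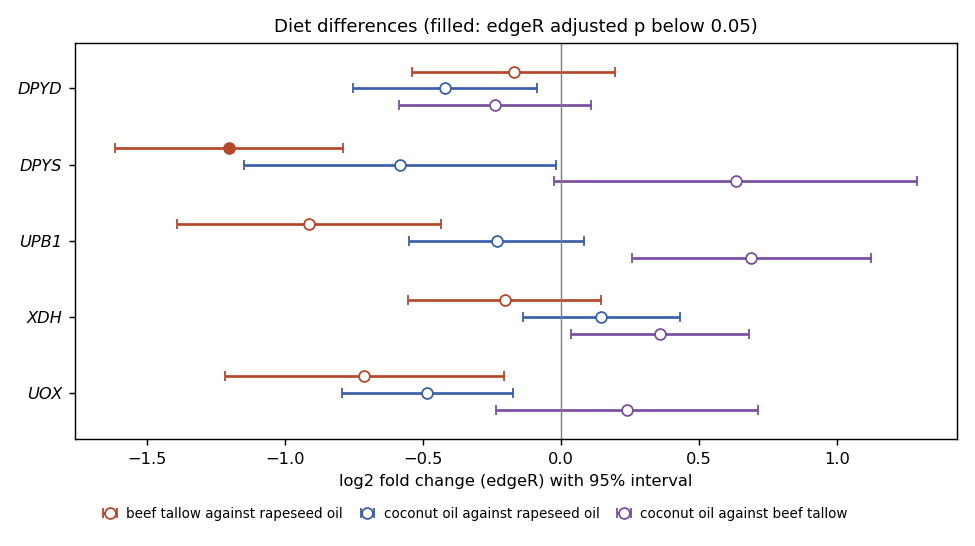
Log2 fold changes of the 5 genes in the 3 comparisons of diets, from edgeR, with their 95% intervals along the x axis. The only filled point, past an edgeR adjusted p of 0.05, is DPYS in beef tallow against rapeseed oil at -1.20, and the 3 intervals of XDH stay within 1 log2 unit of 0.

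The genes upstream of XDH were barely read. PNP (ENSSSCG00000002135, chromosome 7 from 78426838 to 78447029), which frees hypoxanthine and guanine from their nucleosides, had 32 reads over the 16 pigs. Pigs 1 to 5 of group R had 1, 0, 1, 0 and 1 reads, and those of group B 1, 4, 0, 3 and 2 reads. In group C, pigs 1 to 6 had 2, 1, 1, 2, 9 and 4 reads, so that pig 5 held 9 of the 19. As a share of all reads on genes, group C stood 4.54 times as high as group R (19 against 3 reads, exact 95% interval 1.34 to 24.0) and group B 3.08 times (10 against 3 reads, exact 95% interval 0.793 to 17.4), where the intervals cover counting error only and not the spread between pigs. Fitted without the filter on low counts, PNP had an edgeR adjusted p of 0.428 in group C against group R and 0.5998 in group B against group R, so that no difference passed.

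ADA (ENSSSCG00000021255, chromosome 17 from 47044492 to 47072232), the adenosine deaminase, had 0 reads in all 16 pigs, which allows a level of up to 0.165 CPM over all libraries, and of up to 1.70 to 4.25 CPM in a single pig. GDA (ENSSSCG00000034919, chromosome 1 from 225425389 to 225589835), the guanine deaminase, had 1 read, in rapeseed oil pig 5. No comparison of diets was made for ADA or GDA. Both limits cover counting error, and hold for the reads that the authors' counting assigned to these identifiers.

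Ratios of reads within a library do not depend on how libraries are scaled. In group R there were 2.07 to 3.396 reads of DPYS for each read of DPYD, and in group B 1.03 to 1.54, so that the groups did not overlap. Coconut oil pig 3 had the highest ratio of all, 4.24, and the other pigs of group C had 1.72 to 2.08. Mean log2 ratios were 1.43 ± 0.27, 0.36 ± 0.23 and 1.12 ± 0.49 in groups R, B and C (SD). DPYD and DPYS, consecutive in the route, thus differed by unequal amounts between groups R and B.

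The ratio of UOX to XDH sets the message for urate removal against that for its formation. It was 2.23, 2.75, 2.86, 2.70 and 2.71 reads of UOX for each read of XDH in group R. In group B it was 1.64, 1.98, 1.02, 2.46 and 2.10, and in group C it ranged from 1.32 to 2.22. All 6 pigs of group C lay below the lowest pig of group R, but by a narrow margin in the highest, and 1 pig of group B, pig 4, lay above that lowest pig. Mean log2 ratios were 1.40 ± 0.14, 0.82 ± 0.49 and 0.77 ± 0.28 in groups R, B and C. The ratio of UPB1 to DPYS overlapped in all groups, with mean log2 values of 0.93 ± 0.16, 1.20 ± 0.61 and 1.42 ± 0.63. These ratios combine genes picked with results known and were given no test, and gaps in ratios of other genes were not counted.

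**Figure D3:**
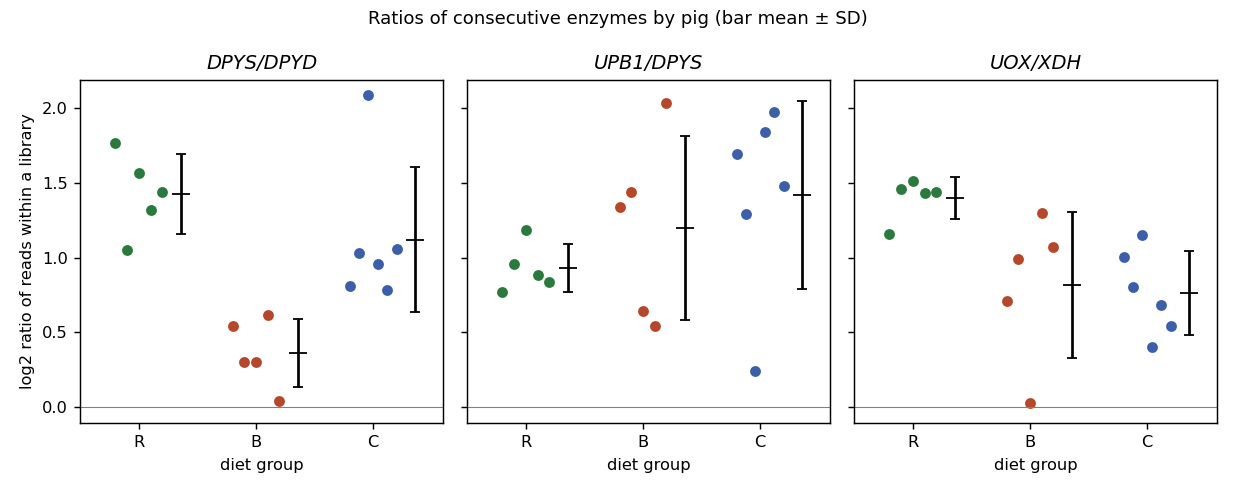
Log2 ratios of reads of consecutive enzymes within each library, by diet group, with the mean ± SD to the right. Groups R and B do not overlap for DPYS/DPYD (means 1.43 and 0.36), and all pigs of group C lie below those of group R for UOX/XDH.

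Pigs of the same diet were then compared with each other, after the mean of each diet was taken out of the log2 levels. Of 4 pairs of genes related in this way over the 16 pigs, DPYD and DPYS varied together (Pearson r = 0.749, permutation p = 0.00107, adjusted over 4 pairs 0.00428, Spearman rho = 0.738, permutation p = 0.00124, adjusted 0.00496). Without the 2 pigs farthest from the median of DPYD, coconut oil pig 3 and rapeseed oil pig 4, r was 0.645. How common such an r is between other pairs of genes was not tested. With the diet means left in, DPYS was 129th of 6890 genes in likeness to DPYD (r = 0.609). DPYD was 266th in likeness to DPYS. For XDH and UOX, r was 0.507 (permutation p = 0.153, adjusted 0.304) and rho 0.309 (permutation p = 0.275, adjusted 0.285), and r fell to 0.305 without 2 pigs. DPYS and UPB1 had an r of 0.239 (permutation p = 0.337, adjusted 0.337) and a rho of 0.338 (permutation p = 0.231, adjusted 0.285), with r = 0.360 without 2 pigs. For DPYD and UPB1, r was 0.318 (permutation p = 0.228, adjusted 0.304) and rho 0.288 (permutation p = 0.285, adjusted 0.285), with r = 0.280 without 2 pigs.

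In beef tallow pig 3, UPB1, XDH and UOX were each at their lowest of the 16 pigs, while the lowest DPYS was in beef tallow pig 5 and the lowest DPYD in coconut oil pig 1. The sum of hepatocyte markers in beef tallow pig 3, 80536 CPM, was the lowest of all pigs, and its sum of Kupffer cell and macrophage markers, 2089 CPM, was the highest. The latter sum ranged from 871 to 1472 CPM in group R, from 1101 CPM upwards in group B and from 864 to 1172 CPM in group C, over 11 of 12 markers found. The part of these markers in the levels of UPB1, XDH and UOX was not tested.

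**Figure D4:**
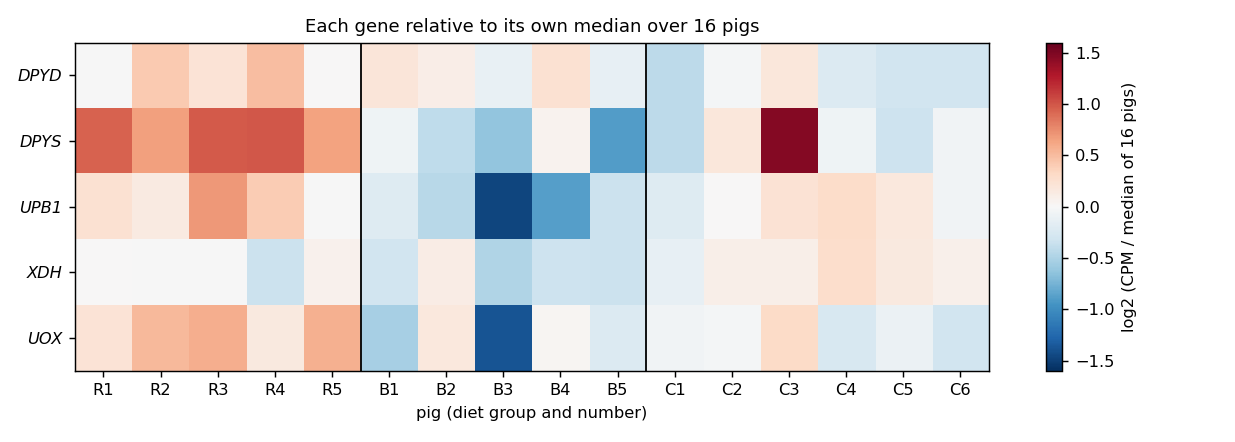
Level of each of the 5 genes in each pig as the log2 ratio to its own median over the 16 pigs (colour scale), with pigs named by diet group and number. UPB1 and UOX are lowest in beef tallow pig 3, DPYS is highest in coconut oil pig 3, and XDH changes least across the row.

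Markers of the cell types that whole liver holds were followed in 7 lists, and none of the markers found was at 0 in all pigs. In group B against group R, where 1.11% of all genes were called, edgeR called 1 of the 14 hepatocyte markers tested, 1 of the 10 Kupffer cell and macrophage markers and 1 of the 7 endothelial markers. The members of each list went in both directions. Of the hepatocyte markers 5 were higher and 9 lower in value (-0.78 to 0.83), of the Kupffer cell markers 7 and 3 (-0.55 to 0.79), and of the endothelial markers 4 and 3 (-0.50 to 0.88). TTR, a plasma carrier made by hepatocytes, was at -0.78 (edgeR adjusted p = 0.0426), the macrophage scavenger receptor CD163 at 0.79 (edgeR adjusted p = 0.0414) and the endothelial receptor LYVE1 at 0.88 (edgeR adjusted p = 0.0495). As a sum, the 15 hepatocyte markers overlapped between all diets, with medians of 148046, 130255 and 144148 CPM in groups R, B and C. The sums of the 9 endothelial markers found had medians of 432, 566 and 501 CPM, of the 10 stellate cell and fibroblast markers 537.6, 567.6 and 551 CPM, and of the 3 red blood cell markers found 1356, 2069 and 2747 CPM. Lymphocyte markers, of which 11 were found, summed to 35.1 to 80.7 CPM per pig, and the 5 bile duct markers found to 3.93 to 42.2 CPM. In group C against group B, 9 of the 10 Kupffer cell and macrophage markers were lower in value, with a median log2 fold change of -0.47. Of these, 5 were lower at an unadjusted p below 0.05, as were 6.21% of all genes, and 0 were called by edgeR. UPB1 (0.69), DPYS (0.63), XDH (0.36) and UOX (0.24) were higher in value in that comparison, and DPYD (-0.24) was lower. The part of these cells in the differences of the 5 genes was not tested.

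No difference between gilts and barrows passed for the 5 genes. Over all 16 pigs, 0 of the 5 were called by edgeR (0.0786% of all 6365 genes tested), 0 had an unadjusted p below 0.05 (4.02%) and DESeq2 called 0 (0.0694%). The log2 fold change of barrows against gilts was -0.35 for DPYS (SE 0.29, edgeR adjusted p = 0.998, 95% interval -0.96 to 0.25). Without coconut oil pig 3, a gilt, it was -0.16 (edgeR adjusted p = 0.987), and with diet as a covariate -0.22 (edgeR adjusted p = 0.956). It was -0.09 for DPYD, -0.031 for UPB1, 0.11 for XDH and 0.11 for UOX, the last of which was 0.24 with diet as a covariate (edgeR adjusted p = 0.914). All 10 Kupffer cell and macrophage markers tested were lower in value in barrows, with a median of -0.41 and 0 called by edgeR. Of these, 4 were lower at an unadjusted p below 0.05, as were 161 of all 6365 genes. The part of these markers in the values of the 5 genes was not tested.

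A difference between the sexes in the response to diet was tested as an interaction. For DPYS in group B against group R it was 0.017 (SE 0.42, edgeR adjusted p = 0.999), with gilts at 258 and 112 CPM and barrows at 248 and 109 CPM in groups R and B. For UOX in group C against group B it was -1.13 (SE 0.37, edgeR adjusted p = 1.000, unadjusted p = 0.00857). Gilts had a mean of 217 CPM of UOX in group B (n = 2) and 419 CPM in group C (n = 3), while barrows had 403 and 352 CPM (n = 3 each). Beef tallow pig 3 is 1 of these 2 gilts. Of the 5 genes, 0 passed the interaction test of edgeR in any of the 3 comparisons, and UOX between groups C and B was the 1 with an unadjusted p below 0.05. Over all genes 0 passed it. An unadjusted p below 0.05 was found for 250 of 6318 genes in group B against R. It was found for 260 of 6528 in group C against R and 240 of 6812 in group C against B.

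Around these enzymes, 96 further genes of 8 lists written from general knowledge were examined, for the remaining steps of pyrimidine and purine breakdown, the molybdenum cofactor that XDH needs, transport of nucleosides and urate, salvage, synthesis of both classes of nucleotide, and the peroxisomal matrix in which UOX resides. By edgeR, 0 of the 64, 63 and 64 tested were called in group B against R, C against R and C against B. Of all genes tested, 1.11%, 0.138% and 0.0587% were called there, so that few or no calls would be looked for in lists of this size. At an unadjusted p below 0.05 there were 4 higher and 8 lower in group B against R, where 8.33% and 6.66% of all genes were so. In group C against R there were 1 and 5 (6.45% and 6.53% of all genes), and in group C against B 5 and 3 (5.24% and 6.21%).

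In pyrimidine breakdown beyond the chain of 3 enzymes, 9 genes were tested, with a median log2 fold change of -0.17 in group B against group R, where the median of all genes was 0.01. ALDH6A1, which handles the product of thymine breakdown, had the smallest p of them, at -0.35 (edgeR adjusted p = 0.414), with 363 ± 32.4 CPM in group R and 285 ± 79.1 CPM in group B. In group C the smallest p was that of NT5C3A, a nucleotidase that releases pyrimidine nucleosides, at 0.64 against group R (edgeR adjusted p = 0.334) and 0.51 against group B (edgeR adjusted p = 0.406). The medians of the list there were -0.07 and 0.07. The 9 genes ranged from -0.40 to 0.53 in group B against group R. DPYS was at -1.20 there, but it was picked with that difference known, so nothing is read from its place outside the range.

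For the other steps of purine breakdown, 5 genes were tested, with medians of -0.06, -0.14 and -0.13 in group B against R, C against R and C against B. AMPD2, an AMP deaminase, was at 0.65 in group B (edgeR adjusted p = 0.212) and 0.38 in group C (edgeR adjusted p = 0.444), each against group R. Among the 3 genes tested for the molybdenum cofactor, MOCS2 was at -0.65 in group B against group R (edgeR adjusted p = 0.190) and at -0.24 in group C (edgeR adjusted p = 0.762), and GPHN at 0.55 in group C against group B (edgeR adjusted p = 0.472). The medians of this list were -0.61, -0.08 and 0.42.

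Of the transporters, 5 were tested, with medians of -0.08, -0.38 and -0.13. SLC22A7, an organic anion transporter of the hepatocyte, was at -0.70 in group B against group R (edgeR adjusted p = 0.202), SLC17A2 at -0.59 in group C against group R (edgeR adjusted p = 0.230) and SLC17A1 at -0.30 in group C against group B (edgeR adjusted p = 0.584). In salvage the medians were 0.12, 0.01 and -0.04, and the smallest p belonged to adenosine kinase (ADK) against group R, at -0.31 in group B (edgeR adjusted p = 0.575) and -0.24 in group C (edgeR adjusted p = 0.661), and to UCK1 in group C against group B, at -0.29 (edgeR adjusted p = 0.752). In pyrimidine synthesis the medians were -0.12, 0.10 and 0.03. DUT, which removes dUTP, was at -0.79 in group B against group R (edgeR adjusted p = 0.273) and at 0.78 in group C against group B (edgeR adjusted p = 0.352), and CTPS2 at -0.53 in group C against group R (edgeR adjusted p = 0.575).

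The peroxisomal list held 23 tested genes, with medians of -0.16, -0.12 and 0.11 in group B against R, C against R and C against B. Catalase (CAT), which removes the hydrogen peroxide made by urate oxidase and other oxidases, had the smallest p in both comparisons with group R. Its means were 6958 ± 468, 4363 ± 1304 and 5244 ± 762 CPM in groups R, B and C (SD). The log2 fold changes were -0.67 (SE 0.21, edgeR adjusted p = 0.135) and -0.41 (SE 0.14, edgeR adjusted p = 0.239), beside -0.71 and -0.49 for UOX. In group C against group B the smallest p was that of NUDT7, a coenzyme A hydrolase, at 0.65 (edgeR adjusted p = 0.295).

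**Figure D5:**
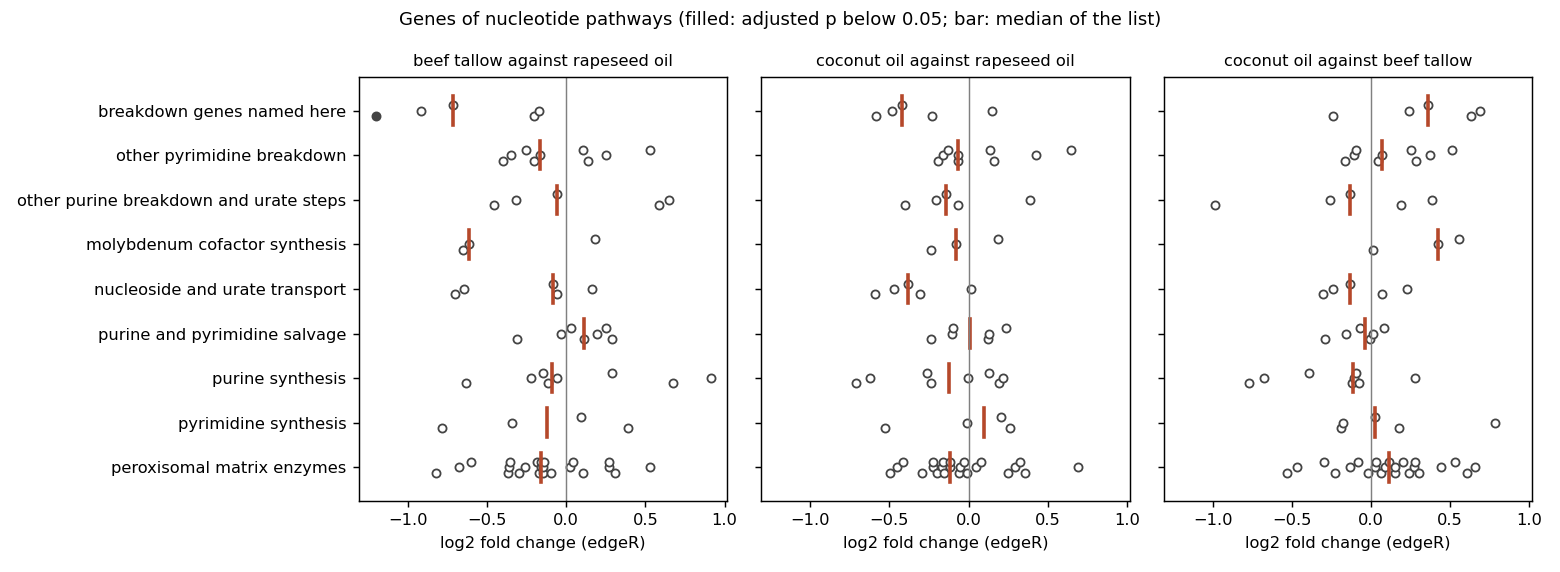
Log2 fold changes (edgeR) of the tested genes of each list in the 3 comparisons of diets, one point per gene, with the median of the list as a bar. DPYS at -1.20 in beef tallow against rapeseed oil is the single filled point, and the median of the 23 peroxisomal genes lies within 0.16 log2 units of 0 in all 3 panels.

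The genes most alike to each of the 5 in profile were sought among the 6890 others kept over the 16 pigs, by Pearson's r of log2 CPM, as a description without a test. These profiles share the same libraries and diets. For UOX the closest with a symbol were CAT (r = 0.929, Spearman rho = 0.850) and ZNF277 (r = 0.873), behind a gene without a symbol (r = 0.946). DPYS was closest to HSD17B6 (r = 0.902, rho = 0.941), a steroid and retinol dehydrogenase, then to VSIG10 (r = 0.865) and a gene without a symbol (r = 0.861). UPB1 was closest to C18orf32 (r = 0.947), the aldehyde dehydrogenase ALDH1B1 (r = 0.897) and NEK4 (r = 0.895). DPYD followed a gene without a symbol (r = 0.884), GRB14 (r = 0.871) and RHOBTB3 (r = 0.856), and XDH followed SCCPDH (r = 0.826), HMCES (r = 0.814) and a gene without a symbol (r = 0.813). None of the 5 genes was among the 3 closest to another of the 5, where r between them ranged from -0.267 for DPYD and XDH to 0.704 for UPB1 and UOX.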

How the data were processed

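Per the labels and the study's methods, the authors made QuantSeq 3′ mRNA libraries of liver RNA, checked reads with FastQC, trimmed them with FLEXBAR, mapped them with TopHat to Sscrofa11.1 and counted them per Ensembl gene with HTSeq. The deposited values are whole-number read counts for each pig without normalization, with 5 tallies of unassigned reads, used here only for shares of reads. The tallies gave 42.8% to 55.1% of reads on genes. The strand setting is not given in the sources used here, so reads of overlapping genes are uncertain: by RefSeq, DPYD overlaps 2 lncRNA genes and DPYS 1 pseudogene. Reads with several alignments were counted on no gene.

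From the counts, each pair of diets was fitted on its own without covariates by edgeR 4.0.16 in R 4.3.3 (quasi-likelihood test, TMM, filterByExpr at its minimum count 10 and total 15, Benjamini-Hochberg adjustment over all genes tested, threshold 0.05, no threshold on fold change). The SE is the log2 fold change divided by the square root of F. CPM values use TMM factors over all 16 pigs. Ratios have 0.5 reads added. Correlations were tested with 100000 permutations within diets. P-values rest on pigs as replicates, and 0 of 120 pairs of libraries were identical. The fits were also run on counts simulated from edgeR's own model of these data, without outlying libraries. That run checked the code and bears on no result given here.

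Alternatives were DESeq2 1.42.0, RLE factors, leaving the filter off or asking for 10 reads in each pig, a single fit over the 16 pigs, a covariate (sex, or diet), a block for the replicate number, and each pig left out in turn. The genes and lists were chosen with earlier results of these data known. Named are the 8 genes, the gene with the smallest p of each list in each comparison, listed genes past the threshold, and the 3 genes most alike to each of the 5 tested. HAO1 and IMPDH2 were chosen after their values were seen. Symbols of genes came from the annotation by identifier, for 14857 of 25880 genes. Positions are those of RefSeq on Sscrofa11.1, matched by symbol, for all 8 genes. No sequence was used.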

Additional observations from a re-analysis of the deposited data

Results flagged for a closer look

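Of 24 groups of values examined for an extreme pig (5 genes and 3 ratios in 3 diets), 5 had one whose gap to its neighbour was past Dixon's 95% critical value, which chance does in about 1 in 20 groups. DPYS in coconut oil pig 3 was at 389 CPM, and its log2 ratio of DPYS to DPYD was 2.09, the highest of group C in both. XDH was low in rapeseed oil pig 4, at 166 CPM, and high in beef tallow pig 2, at 228 CPM. The log2 ratio of UOX to XDH was low for its group in rapeseed oil pig 1, at 1.16. PNP, which the filter on low counts kept out of the comparisons, reached 9 reads in coconut oil pig 5, above the 3 reads that a count of 0 allows.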

How the results depend on the processing

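Calls of edgeR are meant unless DESeq2 is named. DPYS in group B against group R kept its direction and its call in all 7 alternatives with all pigs of the pair and in all 10 fits without 1 pig, with log2 fold changes from -1.32 to -1.09. Over the 3 comparisons of diets, 262 of the 270 alternative fits of the 5 genes kept direction and call, 7 gained a call and 1 turned sign (UOX in group C against B, -0.030 with pigs 3 of both groups left out). The number of the 5 genes called in group B against R was 2 by DESeq2, without the filter and with all 16 pigs in 1 fit, and 1 to 2 with a pig left out (2 without beef tallow pig 3). In group C against R it was 1 by DESeq2 and 0 to 1 with a pig left out (1 without coconut oil pig 3), and in group C against B it was 1 by DESeq2. Over all genes, group B against R had 70 calls of 6318 genes tested. These became 188 of 5808 by DESeq2, 190 of 15123 without the filter and 92 of 6891 with all 16 pigs. They became 35 of 6318 with the replicate block and 9 to 149 with a pig left out (149 of 6436 without beef tallow pig 3). Group C against R had 9 calls of 6528. These became 93 of 3565 by DESeq2, 82 of 15216 without the filter and 14 of 4504 with at least 10 reads in every pig. With a pig left out there were 3 to 27 (27 of 6566 without coconut oil pig 3). Group C against B had 4 calls of 6812. These became 53 of 2156 by DESeq2, 22 of 15376 without the filter, 8 of 6891 with all 16 pigs and 4 to 9 with a pig left out. Between the sexes, 5 calls of 6365 genes became 11 of 15841 by DESeq2 and 10 of 15842 without the filter. With at least 10 reads in every pig there were 0 of 4312. In barrows against gilts, UPB1 turned from -0.031 to 0.084 with diet as a covariate. With a pig left out it lay between -0.17 and 0.065, and UOX between -0.0086 and 0.21. The cause of these shifts was not tested. The replicate number was not used as a pairing in the main fits. Correlations of same-numbered pigs' deviations ran from -0.24 to 0.14, which alone cannot exclude a pairing. The block for the replicate number changed no call among the 5 genes. PNP, ADA and GDA did not pass the filter on low counts, and the reason for their few reads was not tested.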

Other observations

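At the start of purine synthesis, PPAT, the amidotransferase of the committed step, was at 56.6 ± 17.1 CPM in group R (n = 5), 107 ± 34.5 CPM in group B (n = 5) and 63.0 ± 13.9 CPM in group C (n = 6, SD). Its log2 fold change was 0.91 in group B against group R (SE 0.25, edgeR adjusted p = 0.0982) and -0.77 in group C against group B (SE 0.22, edgeR adjusted p = 0.239). IMPDH2, which leads to guanine nucleotides, was at 0.67 (edgeR adjusted p = 0.244) and -0.68 (edgeR adjusted p = 0.325) in the same comparisons. ATIC, of the last steps of the route, was at -0.71 in group C against group R (edgeR adjusted p = 0.217). The 8 genes of purine synthesis tested had median log2 fold changes of -0.09, -0.12 and -0.11 in group B against R, C against R and C against B.

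AMPD3, which deaminates AMP, was at 26.2 ± 8.32 CPM in group R, 39.0 ± 6.02 CPM in group B and 19.9 ± 6.10 CPM in group C (SD), with a log2 fold change of -0.98 in group C against group B (SE 0.23, edgeR adjusted p = 0.184). HAO1, a peroxisomal glycolate oxidase, was at 457 ± 98.0, 301 ± 116 and 457 ± 116 CPM in groups R, B and C, with log2 fold changes of -0.60 in group B against R (edgeR adjusted p = 0.319) and 0.61 in group C against B (edgeR adjusted p = 0.423).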
